A study of Mus musculus with 4 samples.

Results

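Lymphatic endothelial nuclei of the mouse heart were described in 4 single-nucleus RNA libraries. A nucleus was taken as lymphatic when it held at least 4 unique molecular identifiers (UMIs, the counts of distinct captured transcripts) from at least 2 of 6 genes, Reln, Mmrn1, Ccl21a, Flt4, Prox1 and Tc2n. It also had to show at least 300 genes, at most 5% mitochondrial UMIs and under 2.5% of UMIs from the muscle genes Ttn, Ryr2, Myh6 and Rbm20. At most 2 UMIs of the fibroblast genes Pdgfra, Dcn, Col1a2 and Abca8a, and at most 2 of the immune genes Ptprc, Mrc1 and F13a1, were allowed. By this rule 626 of 45483 nuclei that passed the filters were lymphatic. Levels of the 6 gate genes chose the nuclei, so the members were selected on measured UMIs and those levels are given as a description and never as support.

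Lymphatic vessels of the heart drain interstitial fluid and return immune cells to lymph nodes. PROX1, a homeobox transcription factor, holds lymphatic identity, and FLT4 (VEGFR3), the receptor for the growth factor VEGF-C, drives their growth with its co-receptor NRP2. The capillary ends carry the hyaluronan receptor LYVE1 and secrete CCL21, a chemokine that guides dendritic cells and T cells into the vessel, whereas collecting vessels bear valves whose genes include Foxc2, Itga9 and Gja4.

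The study set out 4 groups of C57BL/6 mice aged 6 months, named in the labels as RBM20 homo with correction ("corrected" below), RBM20 homo, RBM20 het and WT. RBM20 is a splicing regulator of heart muscle, and the study's title concerns genome editing of a disease mutation in it. RBM20 homo and RBM20 het carry the mutation in homozygous and heterozygous form, and the corrected mice are homozygotes given a gene-editing correction. Neither the amino acid change nor the editor, its vector and the age at treatment are given in the sources used here. Hearts of 3 mice were pooled into 1 library per group, so genotype and library cannot be told apart and no error between animals exists. The labels name total cardiac nuclei, although the library protocol text also speaks of CD45+ immune cells. No p-value is given. Intervals are 95% counting intervals, which cover counting error only and are narrower than the true error because UMIs cluster within nuclei.

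The corrected library gave 161 lymphatic nuclei, RBM20 homo 234, RBM20 het 122 and WT 109. Their median depth was 2118 UMIs in corrected, 2175 in RBM20 homo, 2489 in RBM20 het and 2522 in WT nuclei. Summed over nuclei, they held 376254, 593326, 333692 and 309630 non-mitochondrial UMIs in corrected, RBM20 homo, RBM20 het and WT. Levels below are CPM, UMIs per 1000000 non-mitochondrial UMIs of such a sum. Whole libraries totalled between 37180791 and 52370368 UMIs, and between 26 and 55 barcodes were shared by each pair of libraries, none of them lymphatic.

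The levels of the gate genes follow from the rule and are given as a description. At most 1 gate UMI was allowed in each blood endothelial nucleus, so the low levels there follow from the rule too. Reln, a secreted glycoprotein released by lymphatic endothelium (GRCm38 chr5:21884454-22344702, minus strand), stood at 1770.1 CPM in corrected, 2519.7 CPM in RBM20 homo, 4049 CPM in RBM20 het and 2258 CPM in WT nuclei, and at 2.37 to 9.73 CPM in blood endothelial nuclei. Mmrn1, an extracellular multimerin (chr6:60924976-60989378, plus strand), stood at 1114 CPM in corrected, 1527 CPM in RBM20 homo, 1846 CPM in RBM20 het and 1499 CPM in WT nuclei. Reln and Mmrn1 were both highest in RBM20 het and lowest in corrected. Ccl21a (chr4:42772860-42773993, minus strand) reached 1185 CPM in corrected, 1333 CPM in RBM20 homo, 875 CPM in RBM20 het and 1605 CPM in WT nuclei, which placed WT highest and RBM20 het lowest. Other Ccl21 features in the annotation held at most 2 UMIs per library, and as near-identical copies share reads, the assignment to Ccl21a is uncertain.

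Flt4 (chr11:49609263-49652739, plus strand) was at 736 CPM in corrected, 699 CPM in RBM20 homo, 710.2 CPM in RBM20 het and 543 CPM in WT nuclei. Prox1 (chr1:190118035-190170714, minus strand) stood at 936 CPM in corrected, 962 CPM in RBM20 homo, 893 CPM in RBM20 het and 839.7 CPM in WT nuclei, and the counting intervals of all 4 overlapped. Prox1 is also transcribed in heart muscle, and cardiomyocyte nuclei held 124 CPM in corrected, 58.8 CPM in RBM20 homo, 111 CPM in RBM20 het and 131 CPM in WT nuclei. Tc2n (chr12:101645443-101718523, minus strand), which encodes a C2-domain protein, was at 329.6 CPM in corrected, 426 CPM in RBM20 homo, 500.5 CPM in RBM20 het and 559 CPM in WT nuclei. Rbm20 itself, capped here by the muscle rule, was at 415 CPM in corrected, 367 CPM in RBM20 homo, 189 CPM in RBM20 het and 200.2 CPM in WT nuclei, against 4194 to 4819.7 CPM in cardiomyocyte nuclei. Its 3' counts do not read the mutation or its correction.

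The gate separated a tail of nuclei from a large group with none of these transcripts. Of nuclei that passed every other limit, 3646 in corrected, 1902 in RBM20 homo, 1854 in RBM20 het and 1963 in WT held 0 gate UMIs. Just outside the threshold, 12 corrected, 11 RBM20 homo, 8 RBM20 het and 7 WT nuclei held 3 gate UMIs, and just inside, with 4 UMIs, lay 6, 7, 2 and 3 members in corrected, RBM20 homo, RBM20 het and WT. The median member held 13 gate UMIs in corrected, 16 in RBM20 homo, 20 in RBM20 het and 19 in WT. All 6 genes were found together in 28 corrected, 53 RBM20 homo, 29 RBM20 het and 33 WT nuclei.

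**Figure D1:**
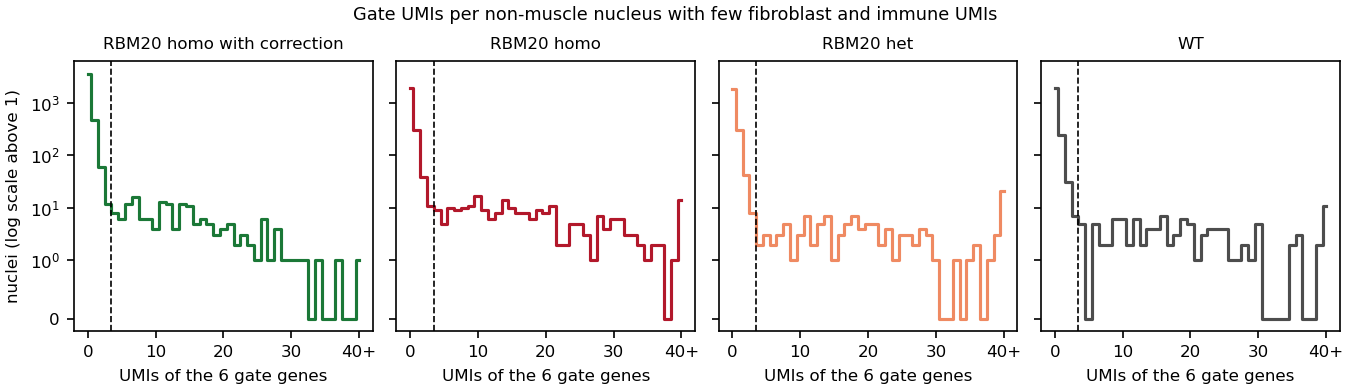
Number of nuclei (vertical axis, log scale above 1) at each count of UMIs of the 6 gate genes (horizontal axis, 40 and above pooled) among nuclei that met every other limit, 1 panel per library. The dashed line marks the threshold of 4 UMIs. Each library has a peak at 0 UMIs, few nuclei at 3 and 4, and a long tail of lymphatic nuclei.

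The promoters of Reln and Ccl21a are shown as those of a secreted glycoprotein and a chemokine of the gate. The RefSeq table for GRCm38.p6 gives the 250 bases before the start of each, 5' to 3' on the gene's strand. Capitals mark CCGGAAG, an ETS-family motif searched on both strands.
Reln promoter, chr5:22344706-22344955, minus strand: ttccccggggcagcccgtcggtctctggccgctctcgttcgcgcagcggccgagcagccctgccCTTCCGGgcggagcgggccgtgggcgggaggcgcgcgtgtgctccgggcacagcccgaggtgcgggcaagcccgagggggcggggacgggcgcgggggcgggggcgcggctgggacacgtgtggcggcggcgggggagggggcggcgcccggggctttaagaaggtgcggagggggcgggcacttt
Ccl21a promoter, chr4:42773992-42774241, minus strand: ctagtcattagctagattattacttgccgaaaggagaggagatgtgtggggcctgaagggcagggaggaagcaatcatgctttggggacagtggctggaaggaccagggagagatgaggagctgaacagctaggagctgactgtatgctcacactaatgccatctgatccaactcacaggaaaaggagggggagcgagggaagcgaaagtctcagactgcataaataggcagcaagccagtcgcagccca
The motif was in 1 of 8 promoters listed for the 6 gate genes, that of Reln, and in 2269 of 32851 promoters of this length (6.91%). It was picked after several motifs had been tried with the data seen, and a match describes letters, not a bound site.

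Beyond the gate, the nuclei carried a wide lymphatic transcript set that was mostly lower, though not always absent, in blood endothelial nuclei. Blood endothelial nuclei (1631 corrected, 857 RBM20 homo, 1009 RBM20 het and 869 WT) were taken by Flt1, Ptprb, Cyyr1, Rgcc and Kdr. Of 21 genes in a lymphatic identity list, 17 had enough UMIs, 16 were higher in lymphatic nuclei in 4 of 4 libraries, and 15 were at least 2-fold higher in each. Over all 9632 genes, 3.63% were at least 2-fold higher in 4 of 4 libraries and 4.54% lower. The list's median log2 ratio was 5.01. Since lymphatic transcripts chose the nuclei, this is a description with no test. The exceptions were Nrp2, higher by 0.67 to 1.19 log2 units, and the transcription factor gene Sox18, at -0.99 to 0.30.

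Lyve1 stood at 274 CPM in corrected lymphatic nuclei, against 3.94 CPM in blood endothelial nuclei of that library. In RBM20 homo it was 322 CPM in lymphatic and 8.93 CPM in blood endothelial nuclei, in RBM20 het 267 and 5.84 CPM, and in WT 229 and 2.96 CPM. Pdpn, encoding podoplanin, a glycoprotein that binds the platelet receptor CLEC-2, was 78.0- to 158-fold higher across libraries. Tbx1, a T-box transcription factor needed for lymphatic development in mouse, was at 162 to 207 CPM in lymphatic nuclei and had at most 1 UMI in the blood endothelial nuclei of any library. Dtx1, a Deltex ubiquitin ligase of Notch signalling, was 112- to 287-fold higher. Blood endothelial sums behind these folds were as low as 1 UMI for Pdpn and 2 UMIs for Dtx1.

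Further genes that stood out in all libraries were Pld5, a phospholipase D family member (115- to 244-fold), Apba2, an adaptor of the amyloid precursor protein (114- to 273-fold), and Sh3gl3, an endophilin (103- to 239-fold). Slc45a3, Nrcam, Wdr17, Tnfaip8l3 and Col23a1 were also at least 48.3-fold higher in each. Not all were particular to lymphatic nuclei among endothelium. Wdr17 was at 582 to 1197 CPM in lymphatic and 451 to 872 CPM in endocardial nuclei, and Col23a1 at 152 to 346 CPM in lymphatic and 74.1 to 257 CPM in endocardial nuclei. Endocardial nuclei numbered 162 in corrected, 184 in RBM20 homo, 98 in RBM20 het and 148 in WT.

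Genes of blood vessels were low. Of 15 measured genes of a blood endothelial list, 8 were at least 2-fold lower in lymphatic nuclei in 4 of 4 libraries, against 4.54% of all genes, with a median log2 ratio of -1.98. The list includes Flt1, Kdr and Rgcc, which chose the blood endothelial nuclei, so the count is in part fixed by that choice. Flt1, the decoy-like VEGF receptor used in the blood endothelial gate, was at 209 to 258 CPM in lymphatic and 2036 to 3592 CPM in blood endothelial nuclei. Car4, a carbonic anhydrase of capillaries, was 11.99- to 44.5-fold lower, the nucleoside transporter Slc28a2 15.9- to 22.9-fold lower, and the transcription factor Dach1 11.02- to 16.6-fold lower. Trpm3, Mcf2l, Slc26a10, Vwa3a and the gate gene Rgcc were at least 11.2-fold lower in each library. Among pan-endothelial genes, 5 of 18 were at least 2-fold lower in 4 of 4 libraries, Ptprb and Cyyr1 of the blood endothelial gate among them.

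In the VEGF-C pathway, the ligand genes differed in direction. Vegfc transcripts were at 53.9 to 107 CPM in lymphatic and 516 to 645 CPM in blood endothelial nuclei, a log2 ratio of -3.32 to -2.598. Vegfd, a related ligand of the same receptor, was higher in lymphatic than in blood endothelial nuclei by 1.39 to 2.33 log2 units. It was at 26.6 to 35.5 CPM in lymphatic nuclei and higher, at 99.6 to 169 CPM, in endocardial nuclei. The receptor gene Flt4, a gate gene, was at 35.7 to 40.9 CPM in blood endothelial nuclei. At most 1 gate UMI was allowed in each of those nuclei, so that level is capped by the rule. Kdr, encoding VEGFR2, which also served the blood gate, was at 271, 295, 312 and 262 CPM in corrected, RBM20 homo, RBM20 het and WT lymphatic nuclei and was higher than in blood endothelium in RBM20 homo and RBM20 het and lower in corrected and WT. Ptpn14, a phosphatase that limits VEGFR3 signalling, was higher in lymphatic than in blood endothelial nuclei by 1.36 to 1.82 log2 units. Endocardial nuclei held more of it, 817 to 1095 CPM, than lymphatic nuclei, 484 to 659 CPM.

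Leukocyte trafficking genes split. Il7, a cytokine that keeps lymphocytes alive, was at 143 to 255 CPM in lymphatic and at most 1.97 CPM in blood endothelial nuclei. The scavenger receptor genes Stab1 and Ackr2 were higher in 4 of 4 libraries, Stab1 by 2.39 to 2.54 and Ackr2 by 3.47 to 4.66 log2 units. The adhesion gene Jam2 had log2 ratios of -3.56 to -3.15. Of 12 measured genes of this list, 4 were higher and 7 lower in 4 of 4 libraries.

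**Figure D2:**
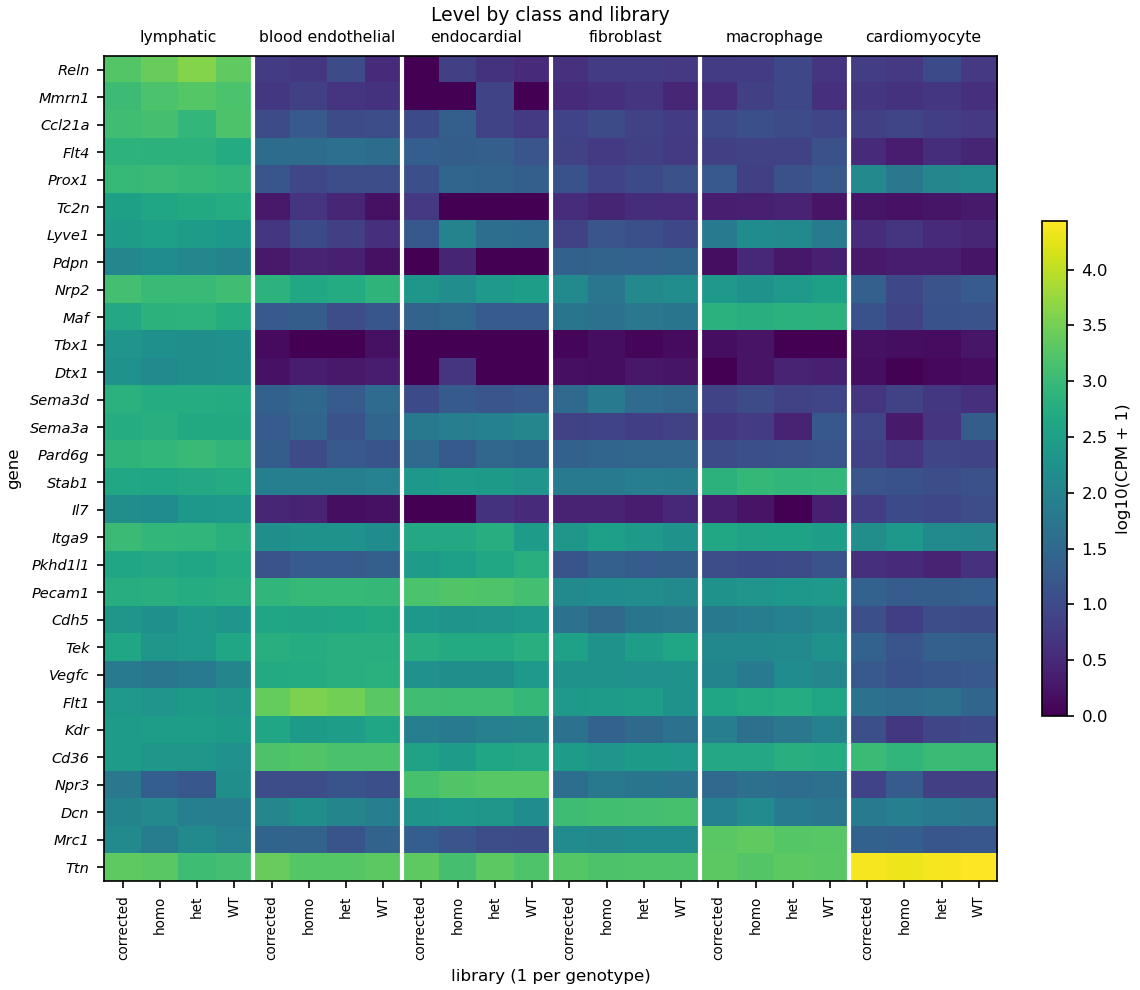
Heat map of log10(CPM + 1) for 30 genes (rows) in 6 classes of nuclei, each with its corrected, RBM20 homo, RBM20 het and WT library (columns). Gate genes and lymphatic genes are bright in the lymphatic columns, Flt1 and Cd36 in the blood endothelial columns and Npr3 in the endocardial columns, while Prox1 is also seen in cardiomyocyte nuclei and Maf and Stab1 in macrophage nuclei. At most 1 gate UMI was allowed per blood endothelial, endocardial, fibroblast or macrophage nucleus. Gate genes are thus dim there by rule.

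Lymphatic nuclei varied in which marker they showed. Lyve1 gave at least 1 UMI in 35.4% of corrected, 42.7% of RBM20 homo, 44.3% of RBM20 het and 38.5% of WT lymphatic nuclei, and in 0.974% to 2.01% of the deeper cardiomyocyte nuclei, which serve here as a level of free RNA. Pdpn was seen in 18.6% of corrected, 22.6% of RBM20 homo, 23.0% of RBM20 het and 19.3% of WT lymphatic nuclei, and in 0.449% to 0.721% of cardiomyocyte nuclei. Median depths were 2118 to 2522 UMIs in lymphatic and 4730 to 6004 UMIs in cardiomyocyte nuclei. Most lymphatic nuclei thus lacked a Lyve1 or Pdpn UMI at this depth, which does not show that they lack the transcript.

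Members with at least 1500 UMIs, 132 of 161 in corrected, 200 of 234 in RBM20 homo, 112 of 122 in RBM20 het and 98 of 109 in WT, were thinned to that depth and shallower ones left out. Lyve1 was seen in 26.5% of corrected, 35.0% of RBM20 homo, 31.2% of RBM20 het and 30.6% of WT lymphatic nuclei so thinned. Ccl21a averaged 3.03 UMIs in nuclei with Lyve1 and 1.53 without it in corrected, and 3.13 with and 1.54 without in RBM20 homo. In RBM20 het the means were 1.94 with Lyve1 and 1.36 without, and in WT 3.13 with and 2.44 without. The means were higher with Lyve1 in each library, from 30 to 70 Lyve1 nuclei, but Ccl21a helped to choose the nuclei and this is a description. Of the other gate genes, Reln averaged 3.53 UMIs with Lyve1 and 3.88 without in WT, and Mmrn1 2.47 with and 2.68 without, while both were higher with Lyve1 in the other 3 libraries. Flt4, Prox1 and Nrp2 means did not keep a common direction over the 4 libraries. Stab2, a hyaluronan receptor related to Stab1, was found without thinning in 8.07% of corrected, 8.97% of RBM20 homo, 12.3% of RBM20 het and 9.17% of WT lymphatic nuclei.

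Genes of valves and collecting vessels were sparse apart from a few. Foxc2, a transcription factor of valve formation, was seen in 4.97% of corrected, 2.99% of RBM20 homo, 0.820% of RBM20 het and 3.67% of WT lymphatic nuclei. Gja4, the gap junction gene for connexin 37, was seen in 8.07% of corrected, 15.0% of RBM20 homo, 5.74% of RBM20 het and 10.1% of WT lymphatic nuclei. Itga9, an integrin that binds fibronectin in forming valves, stood at 1045 CPM in corrected, 853 CPM in RBM20 homo, 818 CPM in RBM20 het and 649 CPM in WT lymphatic nuclei, a log2 ratio of 2.13 to 2.70 to blood endothelium, but 39.6% to 63.9% of cardiomyocyte nuclei also held it. Celsr1, a planar polarity cadherin, was higher than in blood endothelium by 4.69 to 6.59 log2 units.

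Lymphatic nuclei made up a larger share of the RBM20 homo library than of the other libraries. The share was 1.08% (exact Clopper-Pearson interval 0.917% to 1.25%) in corrected, 2.03% (1.78% to 2.31%) in RBM20 homo, 1.27% (1.05% to 1.51%) in RBM20 het and 1.16% (0.954% to 1.40%) in WT. RBM20 homo thus held 1.75 times the WT share (interval 1.40 to 2.20) and corrected 0.530 times the RBM20 homo share (0.434 to 0.646). For RBM20 het over WT the ratio was 1.09 (0.845 to 1.41) and for corrected over WT 0.928 (0.728 to 1.18), both with intervals that include 1. These intervals say nothing of the spread between animals.

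Other denominators left the order of RBM20 homo above WT. Among endothelial nuclei (lymphatic, blood and endocardial) the lymphatic share was 8.24% in corrected, 18.4% in RBM20 homo, 9.93% in RBM20 het and 9.68% in WT, a ratio of 1.90 (1.53 to 2.35) for RBM20 homo over WT. Among nuclei under the muscle limit it was 1.47% in corrected, 2.91% in RBM20 homo, 1.82% in RBM20 het and 1.87% in WT, and corrected over WT was then 0.783 (0.615 to 0.996). Blood endothelial nuclei numbered 857 in RBM20 homo and 869 in WT, although the RBM20 homo library had 11512 passing nuclei and WT 9394. Nuclei with under 1500 UMIs, 2622 in corrected, 1108 in RBM20 homo, 1091 in RBM20 het and 1278 in WT, were then left out and the deeper ones thinned to that depth, which also relaxes the limits on other transcripts. Of these deeper nuclei the lymphatic shares were 1.13% in corrected, 2.14% in RBM20 homo, 1.66% in RBM20 het and 1.24% in WT.

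**Figure D3:**
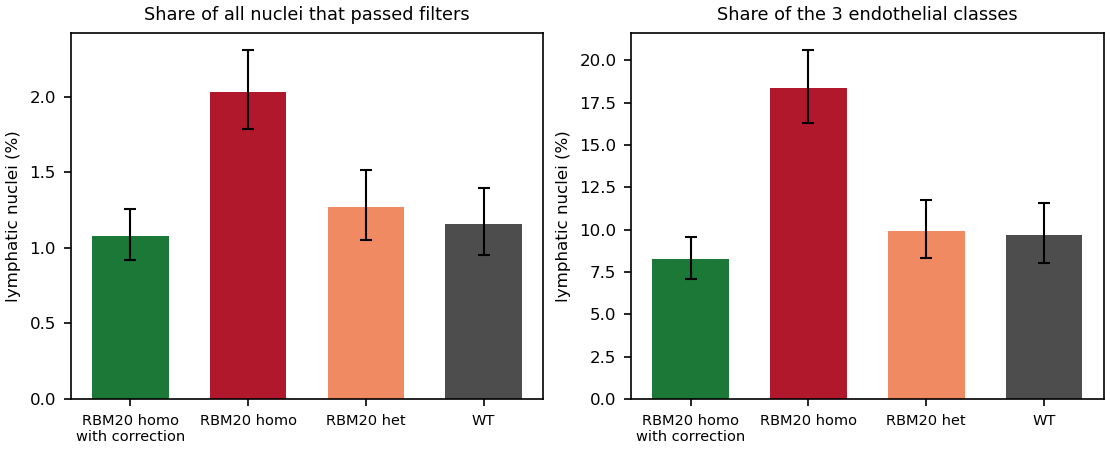
Lymphatic nuclei as a percent of all nuclei that passed the filters (left) and of lymphatic, blood endothelial and endocardial nuclei together (right), 1 bar per library, with exact 95% binomial intervals for counting error. The RBM20 homo bars, at 2.03% and 18.4%, stand above those of the other 3 libraries in both panels.

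To ask how the mutation and its correction go with transcript levels inside these nuclei, summed UMIs were compared between libraries, and a gene was called at a ratio of at least 2-fold where both libraries' UMIs added to 30 or more. For RBM20 homo against WT, 269 of 5507 genes were called higher (4.88%) and 162 lower (2.94%), 7.83% in all. The median of all genes was -0.02 on the log2 scale. No identity gene beyond the gate that reached 30 UMIs passed 2-fold. Sox18, under that limit, was at 23.9 CPM in corrected, 13.5 CPM in RBM20 homo, 18.0 CPM in RBM20 het and 51.7 CPM in WT nuclei. Of 16 measured identity genes 9 were higher in RBM20 homo and 7 lower, 0 were past 2-fold, and the median log2 ratio was 0.04. In the VEGF-C list 4 of 11 were higher, 7 lower and 0 past 2-fold, with a median of -0.12.

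Among identity genes, Lyve1 was 1.40-fold higher (95% interval 1.06 to 1.87) in RBM20 homo than in WT, Fgl2, a fibrinogen-like protein gene, 1.58-fold higher (95% interval 1.02 to 2.52), Maf, a transcription factor, 1.30-fold higher (95% interval 1.09 to 1.57), and Sema3a, a secreted guidance cue, 1.25-fold higher (95% interval 1.03 to 1.52). Klhl4 was 1.48-fold lower (95% interval 1.25 to 1.74) and Nrp2 1.21-fold lower (95% interval 1.06 to 1.38). The intervals of the other 10 included 1, that of Tbx1 among them, at 207 CPM in corrected, 170.2 CPM in RBM20 homo, 162 CPM in RBM20 het and 171 CPM in WT nuclei. Vegfc was 1.98-fold lower (95% interval 1.18 to 3.32) in RBM20 homo than in WT, from 32 UMIs in RBM20 homo and 33 UMIs in WT.

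A set of genes known as targets of the glucocorticoid receptor was higher in RBM20 homo. Of 8 measured members 7 were higher and 5 past 2-fold, 0 were past 2-fold lower, and the median log2 ratio was 1.52. Over all genes 4.88% were past 2-fold higher and 2.94% lower. In blood endothelial nuclei the median over 11 measured members was 1.13. Fkbp5, a co-chaperone that restrains the glucocorticoid receptor (chr17:28399094-28517527, minus strand), stood at 314 CPM in corrected, 649 CPM in RBM20 homo, 419.5 CPM in RBM20 het and 158 CPM in WT nuclei. The RBM20 homo library was the highest and WT the lowest, and RBM20 homo was 4.10-fold higher (95% interval 3.04 to 5.64) than WT. In blood endothelial nuclei the Fkbp5 ratio was 11.02. In RBM20 homo and WT, Fkbp5 was at 267 and 19.8 CPM in cardiomyocyte and 876 and 252 CPM in fibroblast nuclei. It was at 1151 and 189 CPM in macrophage and 599 and 32.4 CPM in endocardial nuclei, so it was higher in RBM20 homo in all classes. The part of free RNA was not tested.

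Zbtb16, a zinc-finger repressor (chr9:48654297-48836222, minus strand), was at 329.6 CPM in corrected, 592 CPM in RBM20 homo, 449.5 CPM in RBM20 het and 200.2 CPM in WT nuclei, 2.95-fold higher (95% interval 2.25 to 3.94) in RBM20 homo than in WT, against a ratio of 8.97 in blood endothelial nuclei. Zbtb16 was at 1287 CPM in RBM20 homo and 350 CPM in WT cardiomyocyte nuclei. The RBM20 homo and WT levels were 1235 and 374 CPM in fibroblast, 815 and 151 CPM in macrophage and 989 and 67.1 CPM in endocardial nuclei. Tsc22d3, which encodes the anti-inflammatory protein GILZ, was at 34.6 CPM in corrected, 135 CPM in RBM20 homo, 74.9 CPM in RBM20 het and 48.4 CPM in WT nuclei, 2.78-fold higher (95% interval 1.59 to 5.20) in RBM20 homo. Ddit4, an inhibitor of mTOR signalling, was 3.91-fold higher (95% interval 1.86 to 9.48), from 60 UMIs in RBM20 homo and 8 in WT. Errfi1, a feedback inhibitor of the EGF receptor, was 1.93-fold higher (95% interval 1.38 to 2.74). Nr3c1, the receptor's own gene, was the member that was lower, 1.60-fold lower (95% interval 1.27 to 2.02). In corrected against RBM20 homo, 2 of the 8 were higher, 6 lower and 3 past 2-fold lower, against 2.54% of all genes, with a median of -0.92.

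The kinase gene Sgk1 is a classic target of this receptor. It had 17 UMIs in corrected, 33 in RBM20 homo, 15 in RBM20 het and 5 in WT lymphatic nuclei. RBM20 homo was 3.44-fold higher (95% interval 1.34 to 11.3) than WT. The RBM20 homo and WT levels of Sgk1 were 124 and 97.0 CPM in blood endothelial and 50.2 and 34.7 CPM in endocardial nuclei. They were 27.9 and 21.4 CPM in fibroblast and 44.6 and 30.9 CPM in macrophage nuclei. In cardiomyocyte nuclei Sgk1 was lower in RBM20 homo, at 3.91 CPM, than in WT, at 4.73 CPM. The Sgk1 promoter shown was picked because it was the only promoter of this list with a full receptor element. It lies before a start inside the gene's span (chr10:21882184-21999903, plus strand), not at the gene's outermost 5' end. Capitals mark AGAACA and TGTTCT with any 3 bases between them, a palindrome that reads alike on both strands, in the RefSeq GRCm38.p6 sequence.
Sgk1 promoter, chr10:21993640-21993889, plus strand: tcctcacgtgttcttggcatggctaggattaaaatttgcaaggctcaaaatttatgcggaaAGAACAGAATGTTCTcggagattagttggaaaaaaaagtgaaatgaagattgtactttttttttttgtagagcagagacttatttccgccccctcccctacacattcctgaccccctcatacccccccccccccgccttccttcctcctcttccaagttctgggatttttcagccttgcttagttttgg
This strict element was in 1 of 19 promoters listed for 10 genes of the set and in 3 of 32851 promoters (0.00913%). It too was chosen with the data seen. Receptor binding was not measured.

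**Figure D4:**
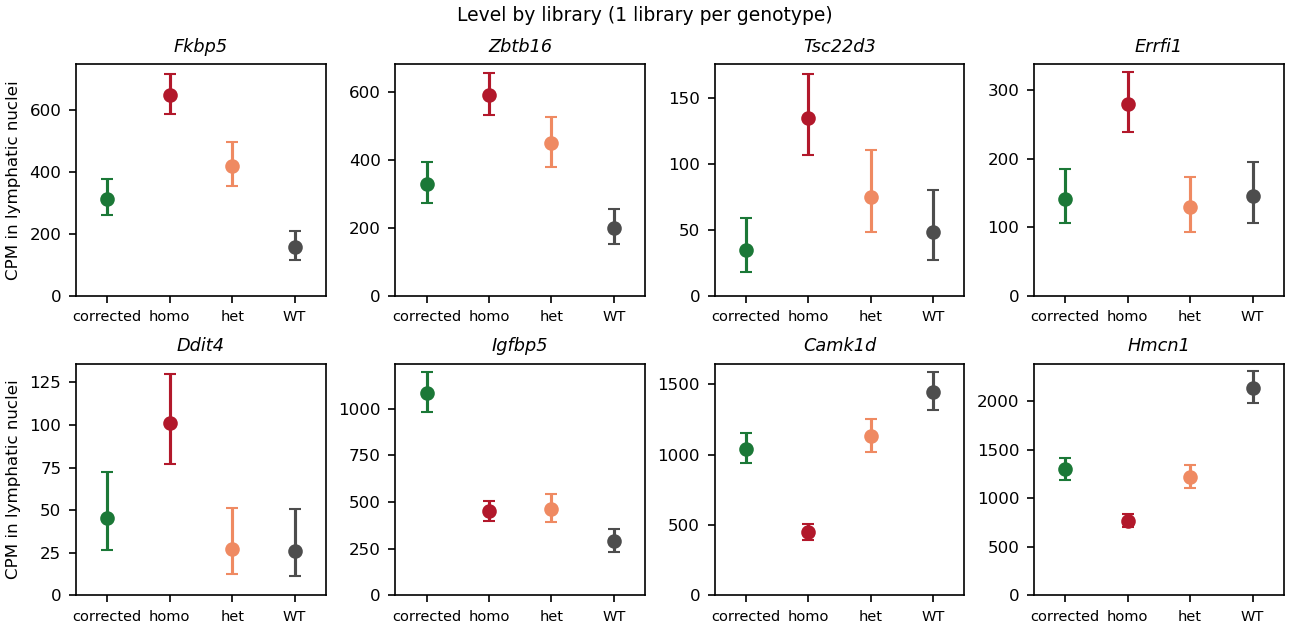
CPM of 8 genes in lymphatic nuclei (vertical axes from 0) by library, with exact 95% Poisson intervals for counting error. Fkbp5, Zbtb16, Tsc22d3, Errfi1 and Ddit4 are highest in RBM20 homo, Igfbp5 is highest in corrected, and Camk1d and Hmcn1 are lowest in RBM20 homo and highest in WT.

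The transcripts with the highest ratios came with higher levels in other cell classes. Nppa, the atrial natriuretic peptide gene of stressed heart muscle, had 359 UMIs in RBM20 homo and 0 in WT lymphatic nuclei, at least 62.4-fold higher with 3 UMIs taken as the WT floor. Its level in RBM20 homo was 605 CPM in lymphatic, 841 CPM in blood endothelial, 535 CPM in fibroblast, 684 CPM in macrophage and 1015 CPM in cardiomyocyte nuclei, so all classes carried it. Ppm1e, a protein phosphatase gene, was 8.499-fold higher (95% interval 3.99 to 21.6), at 192 CPM in RBM20 homo and 22.6 CPM in WT lymphatic nuclei, and at 1001 CPM in RBM20 homo and 112 CPM in WT cardiomyocyte nuclei. Sorbs2os, an antisense gene whose reads may not be separable from its partner's as strand use is not stated, was 3.96-fold higher (95% interval 2.44 to 6.76), and Csrp3, a muscle LIM protein gene, 4.78-fold higher (95% interval 2.06 to 13.6). The part of free RNA in these values was not tested.

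Postn, the matricellular protein gene of activated fibroblasts, was at 34.6 CPM in corrected, 201 CPM in RBM20 homo, 23.97 CPM in RBM20 het and 19.4 CPM in WT nuclei, 10.4-fold higher (95% interval 4.62 to 28.8) in RBM20 homo than in WT. The WT level rested on 6 UMIs. In fibroblast nuclei Postn stood at 388 CPM in RBM20 homo and 23.7 CPM in WT. Mgp, an inhibitor of calcification, was at 50.5 CPM in corrected, 300 CPM in RBM20 homo, 56.9 CPM in RBM20 het and 74.3 CPM in WT nuclei, 4.04-fold higher (95% interval 2.61 to 6.54), and 5.72-fold higher in blood endothelial nuclei. Of 7 measured fibroblast markers, Postn included, 7 were higher in RBM20 homo and 4 past 2-fold, against 4.88% of all genes past 2-fold higher. Their median log2 ratio was 1.199 in lymphatic and 0.995 in blood endothelial nuclei. The summed fibroblast markers in lymphatic nuclei were 959 CPM in corrected, 1133 CPM in RBM20 homo, 674 CPM in RBM20 het and 504 CPM in WT. They were 9469 to 11013 CPM in fibroblast nuclei. Their part in the Postn and Mgp values was not tested.

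Camk1d and Hmcn1 were lower in RBM20 homo from many nuclei. Camk1d, a calcium and calmodulin dependent kinase (chr2:5293457-5714515, minus strand), was at 1042 CPM in corrected, 447 CPM in RBM20 homo, 1129.8 CPM in RBM20 het and 1447 CPM in WT nuclei, 3.24-fold lower (95% interval 2.78 to 3.79) in RBM20 homo than in WT, with UMIs in 150 of 234 RBM20 homo and 101 of 109 WT nuclei. The ratio in blood endothelial nuclei was 0.366. Camk1d was lower in RBM20 homo than in WT in the other classes too. The RBM20 homo and WT levels were 256 and 686 CPM in cardiomyocyte, 470 and 1209 CPM in fibroblast, 1575 and 2339 CPM in macrophage and 545 and 1581 CPM in endocardial nuclei. Hmcn1, a basement membrane linker (chr1:150562524-150993435, minus strand), was at 1299.7 CPM in corrected, 769 CPM in RBM20 homo, 1217 CPM in RBM20 het and 2141 CPM in WT nuclei, 2.79-fold lower (95% interval 2.47 to 3.15), and 0.527 times WT in blood endothelial nuclei. Without the nuclei that held endocardial UMIs it was 2.33-fold lower. Hmcn1 was higher in RBM20 homo, at 707 CPM, than in WT, at 570 CPM, in cardiomyocyte nuclei. It was lower in fibroblast (254 and 339 CPM), macrophage (162 and 318 CPM) and endocardial nuclei (3925 and 7570.5 CPM in RBM20 homo and WT). In lymphatic nuclei both Camk1d and Hmcn1 had the order RBM20 homo lowest and WT highest.

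Hdac9, a histone deacetylase, was at 465 CPM in corrected, 254 CPM in RBM20 homo, 560.4 CPM in RBM20 het and 607 CPM in WT nuclei, 2.39-fold lower (95% interval 1.92 to 2.98) in RBM20 homo than in WT, and 0.867 times WT in blood endothelial nuclei. F8, the coagulation factor VIII gene, was 4.12-fold lower (95% interval 2.37 to 7.39), the inflammatory caspase gene Casp4 3.93-fold lower (95% interval 2.22 to 7.21) and Nexmif 3.74-fold lower (95% interval 2.13 to 6.76). Each of these 3 rested on 19 or 20 UMIs in RBM20 homo and 39 or 43 in WT. Blood endothelial ratios were 0.546 for F8, 0.971 for Casp4 and 2.35 for Nexmif. Cmah, 4.11-fold higher in RBM20 homo, had 67 of its 126 UMIs in 1 nucleus.

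Kcnc2, Tmem108, Npr3 and Cdh11 were lower in RBM20 homo, and their WT UMIs lay in few nuclei. Tmem108 had 23 UMIs in RBM20 homo and 91 in WT, Npr3, a natriuretic peptide clearance receptor gene, 12 in RBM20 homo and 50 in WT, and Cdh11 22 in RBM20 homo and 58 in WT. The endocardial marker sum was 407 CPM in corrected, 303 CPM in RBM20 homo, 249 CPM in RBM20 het and 937 CPM in WT lymphatic nuclei, against 10147 to 12322 CPM in endocardial nuclei. At least 2 UMIs of Npr3, Smoc1, Tmem108 and Cdh11 together were found in 7 corrected, 10 RBM20 homo, 1 RBM20 het and 11 WT members. These members were chosen by the UMIs of these genes, so lower sums without them are fixed by that choice. Without them, Tmem108 had 2 UMIs in RBM20 homo and 2 in WT, Npr3 5 in RBM20 homo and 3 in WT, and Cdh11 9 in RBM20 homo and 6 in WT. Kcnc2, a potassium channel gene with 36 of its 73 WT UMIs in 1 nucleus, then had 9 UMIs in RBM20 homo and 11 in WT.

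**Figure D5:**
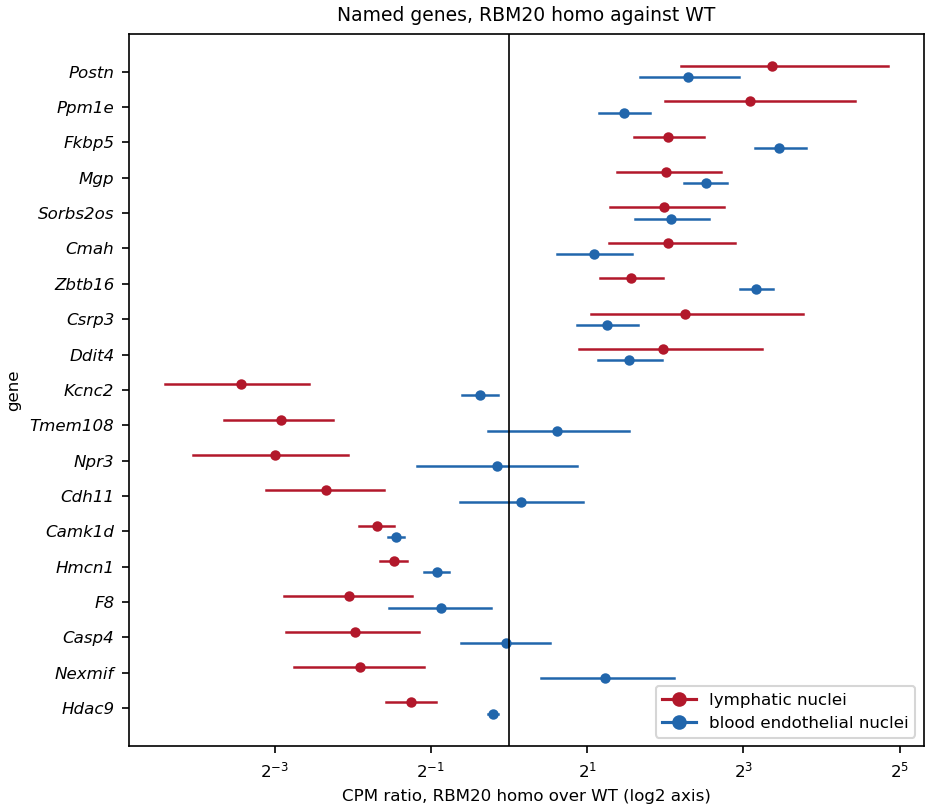
Ratio of CPM in RBM20 homo to WT (log2 axis) for the named genes other than Nppa, in lymphatic nuclei (red) and blood endothelial nuclei (blue), with exact 95% counting intervals. Fkbp5 and Zbtb16 lie further from 1 in blood endothelial nuclei, while Tmem108, Npr3 and Cdh11 lie far below 1 in lymphatic nuclei and at 0.901 to 1.54 in blood endothelial nuclei. At most 1 UMI of Npr3, Smoc1 and Tmem108 together was allowed per blood endothelial nucleus. That rule limits what the blue Npr3 and Tmem108 ratios can show.

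In the valve and collecting vessel list 9 of 13 were higher in RBM20 homo than in WT and 4 lower. In it 1 was past 2-fold each way, against 7.83% of all genes in either direction. The median log2 ratio was 0.40 in lymphatic and -0.08 in blood endothelial nuclei. Corrected against WT, which shares the WT library, had 10 of 11 higher and a median of 0.35. RBM20 het against WT had 3 of 9 higher and a median of -0.16. In RBM20 homo over WT, Klf2, a flow-responsive transcription factor, was 2.09-fold higher (95% interval 1.27 to 3.60). Efnb2, an ephrin ligand, was 1.78-fold higher (95% interval 1.34 to 2.40), and Fat4, an atypical cadherin, 2.11-fold lower (95% interval 1.10 to 4.07). Of 5 angiopoietin and Tie genes 1 was past 2-fold, Angpt1 at 2.05-fold lower (95% interval 1.19 to 3.57). Tek, which encodes the receptor TIE2, was at 407 CPM in corrected, 226 CPM in RBM20 homo, 252 CPM in RBM20 het and 400.5 CPM in WT nuclei, 1.77-fold lower (95% interval 1.38 to 2.28) in RBM20 homo. Ramp2, a partner of the adrenomedullin receptor, was 1.78-fold higher (95% interval 1.25 to 2.59). Cxcl12, a chemokine gene, was 3.91-fold higher on 30 UMIs in RBM20 homo and 4 in WT.

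Basement membrane genes were mixed. In that list, which also held TGF-beta genes, 10 of 23 were higher in RBM20 homo and 13 lower. The collagen IV genes Col4a1 and Col4a2 were 1.78-fold higher (95% interval 1.34 to 2.40) and 2.07-fold higher (95% interval 1.43 to 3.08) in RBM20 homo. Sparc, a collagen-binding glycoprotein, was 2.82-fold higher (95% interval 1.67 to 5.06). Nid2, a nidogen, was 4.47-fold lower on 9 UMIs in RBM20 homo and 21 in WT. Col4a1 stood at 369 CPM in corrected, 362 CPM in RBM20 homo, 234 CPM in RBM20 het and 203 CPM in WT nuclei, so that corrected was near RBM20 homo and RBM20 het near WT.

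Corrected against RBM20 homo, 120 of 5746 genes were at least 2-fold higher (2.09%) and 146 lower (2.54%), 4.63% in all. The RBM20 homo library is shared with the comparison above, so opposite signs in the 2 comparisons are not separate evidence. Nppa was 37.9-fold lower (95% interval 17.3 to 104) in corrected, Mgp 5.94-fold lower (95% interval 3.69 to 10.1), Postn 5.80-fold lower (95% interval 3.27 to 11.2) and Ppm1e 5.16-fold lower (95% interval 2.95 to 9.74). Ccn2, a matricellular target of YAP, was 9.30-fold lower (95% interval 2.98 to 46.8), from 3 UMIs in corrected and 44 in RBM20 homo, and the mitotic kinase gene Wee1 7.61-fold lower (95% interval 2.40 to 38.6). Camk1d was 2.33-fold higher (95% interval 1.99 to 2.74) in corrected. Its corrected level of 1042 CPM lay between 447 CPM in RBM20 homo and 1447 CPM in WT.

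Igfbp5, an insulin-like growth factor binding protein (chr1:72857932-72874884, minus strand), was highest in the corrected library. It was at 1084 CPM in corrected, 450.0 CPM in RBM20 homo, 462 CPM in RBM20 het and 291 CPM in WT nuclei, 2.41-fold higher (95% interval 2.06 to 2.82) in corrected than in RBM20 homo and 3.73-fold higher (95% interval 2.96 to 4.74) than in WT. UMIs lay in 80 of 161 corrected, 78 of 234 RBM20 homo, 44 of 122 RBM20 het and 31 of 109 WT nuclei, with at most 26 in 1 corrected nucleus. In blood endothelial nuclei it was at 60.7 CPM in corrected, 68.5 CPM in RBM20 homo, 56.5 CPM in RBM20 het and 36.1 CPM in WT, and the ratio of corrected to RBM20 homo was 0.887. The difference between the classes was not tested.

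Ephb1, a guidance receptor, was 4.38-fold higher (95% interval 2.79 to 7.08) in corrected than in RBM20 homo, and Adgrl2, a latrophilin, 2.62-fold higher (95% interval 1.92 to 3.59). Pde8b, a cyclic AMP phosphodiesterase, was 3.84-fold higher, on 39 UMIs in corrected. Pde8b turned round when nuclei with any fibroblast or immune UMI were left out, with 3 UMIs left in corrected and 9 in RBM20 homo. Of 16 measured identity genes 6 were higher in corrected and 10 lower, with 0 past 2-fold and a median of -0.17.

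Corrected against WT, 143 of 4560 genes were at least 2-fold higher (3.14%) and 108 lower (2.37%), 5.5% in all. Besides Igfbp5, Kcnk5, an acid-sensitive potassium channel gene, was 5.35-fold higher (95% interval 2.25 to 15.5), at 104 CPM in corrected, 75.8 CPM in RBM20 homo, 47.9 CPM in RBM20 het and 19.4 CPM in WT nuclei. It was near 1 CPM in blood endothelial nuclei. Nlgn1, a neuroligin gene, had 30 UMIs in corrected and 1 in WT, 24.7-fold higher (95% interval 4.10 to 1007). Flrt2, a guidance and adhesion gene, was 2.79-fold lower (95% interval 2.14 to 3.68) in corrected than in WT, and Sbf1 3.57-fold lower (95% interval 1.99 to 6.74). Identity genes had 10 of 16 higher, 0 past 2-fold and a median of 0.20. Fkbp5 was 1.98-fold higher (95% interval 1.41 to 2.82) in corrected than in WT.

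RBM20 het against WT gave 90 of 4283 genes at least 2-fold higher (2.1%) and 88 lower (2.05%), 4.16% in all. Plcl1, an inactive phospholipase C-like protein gene, was 3.43-fold higher (95% interval 2.604 to 4.57) in RBM20 het, at 260.5 CPM in corrected, 308 CPM in RBM20 homo, 731 CPM in RBM20 het and 213 CPM in WT nuclei. Hecw2, a ubiquitin ligase, was 2.81-fold higher (95% interval 1.93 to 4.17) and Fkbp5 2.65-fold higher (95% interval 1.90 to 3.75). Blood endothelial ratios were 2.20 for Plcl1, 1.64 for Hecw2 and 3.06 for Fkbp5. Kirrel3 had 29 of its 100 RBM20 het UMIs in 1 nucleus. The endocardial genes Cdh11, Tmem108 and Npr3 were again lower than in WT, and 3 Tmem108 UMIs in RBM20 het and 2 in WT were left without the members chosen by endocardial UMIs. Of 16 measured identity genes 11 were higher and 0 past 2-fold, with a median of 0.15.

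Cardiomyocyte and macrophage markers were lower in the lymphatic nuclei than in their own classes, but not absent. At least 3 cardiomyocyte marker UMIs were found in 156 of 161 corrected, 188 of 234 RBM20 homo, 106 of 122 RBM20 het and 101 of 109 WT members. The summed cardiomyocyte markers were 4037 CPM in corrected, 3432 CPM in RBM20 homo, 2544 CPM in RBM20 het and 2968 CPM in WT lymphatic nuclei, against 22648 to 28912 CPM in cardiomyocyte nuclei, and 3086 to 4207 CPM in blood endothelial nuclei. Of 12 such markers 9 were higher in RBM20 homo than in WT, 5 past 2-fold, against 4.88% of all genes past 2-fold higher. Their median log2 ratio of 0.65 became 0.04 with the nuclei of highest doublet score left out. Summed macrophage markers were 162 to 271 CPM in lymphatic and 6993 to 8285 CPM in macrophage nuclei. Pericyte markers summed to 447 to 696 CPM in lymphatic and 397 to 994 CPM in blood endothelial nuclei. Adipocyte markers summed to 231 to 389 CPM in lymphatic and 368 to 455 CPM in blood endothelial nuclei. In lymphatic nuclei that sum came from 1 of 5 listed genes in corrected, RBM20 het and WT and from 2 in RBM20 homo. No pericyte or adipocyte class was set up for comparison. Sums of T cell, B cell and Schwann markers were at most 47.8 CPM in the lymphatic nuclei of any library.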

How the data were processed

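Nuclei were profiled with 10x 3' v3 chemistry, and the authors deposited a matrix of raw UMI counts per gene and barcode for each library. Per the submitters' processing notes, Cell Ranger 6.1.1 and Seurat 4 were used, while the deposited matrix header names Cell Ranger 4.0.0. Whether introns were counted is not given in the sources used here. Of 45992 barcodes, 45483 had 300 genes or more, with mitochondrial UMIs of 5% or less. Copies of the same symbol were merged. Counts were summed per class and library and given as UMIs per 1000000 (CPM). Blood endothelial nuclei needed at least 6 UMIs from at least 3 of their genes, endocardial at least 3, fibroblast at least 6 and macrophage at least 4. Each of these classes was allowed at most 1 UMI of the 6 gate genes per nucleus. For blood endothelial nuclei, at most 1 UMI of Npr3, Smoc1 and Tmem108 together was allowed as well. Cardiomyocyte nuclei were those with at least 4% muscle UMIs, since the 10% first set kept too few.

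The members and gene lists were chosen with earlier results of these data known. With 1 library per genotype no test was made. Shares have Clopper-Pearson, sums Poisson and ratios of counts conditional binomial intervals at 95%. Of these only the ratio intervals were checked on simulated counts. Those counts were drawn without clustering within nuclei, so the check cannot show how far clustering makes the intervals too narrow. A sum of 0 was set to 3 UMIs for bounds and list medians. Genes named per comparison are those whose interval bound nearest to 1 was farthest from it, 10 each way for RBM20 homo against WT, 6 for corrected against RBM20 homo and 4 for the others, where the higher library held 30 UMIs or more. A result by this rule for corrected against RBM20 homo is not reported here. Against blood endothelium they are the 12 highest and 8 lowest by the smallest ratio over 4 libraries. Mitochondrial, haemoglobin, ribosomal, Y-linked and unnamed genes, Xist and Tsix were left out, as were genes under 0.2 of the level in cardiomyocyte, fibroblast or macrophage nuclei in both libraries compared. From each list up to 5 genes with the largest ratio could be named. Scrublet (scanpy 1.11.5) scored doublets. Its own threshold marked 2990 corrected, 1 RBM20 homo, 0 RBM20 het and 0 WT nuclei and was not used, so doublets were kept, and removing the highest scores was an alternative. Python 3.11.15, numpy 2.4.6, scipy 1.17.1 and matplotlib 3.10.9 were used.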

Additional observations from a re-analysis of the deposited data

Results flagged for a closer look

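Nexmif was lower in RBM20 homo than in WT lymphatic nuclei (ratio 0.268) and higher in blood endothelial nuclei (ratio 2.35). Kcnc2 was lower in RBM20 het than in WT lymphatic nuclei (ratio 0.254) and higher in blood endothelial nuclei (ratio 1.27). Cmah was higher in corrected than in WT lymphatic nuclei (ratio 3.70) and lower in blood endothelial nuclei (ratio 0.595), and 44 of its 72 corrected UMIs lay in 1 nucleus. Without members that held endocardial UMIs, the Kcnc2 ratio was 1.44, and without fibroblast or immune UMIs the Cmah ratio was 0.905, so neither then differed in direction from blood endothelial nuclei. In the main values the classes moved opposite ways, and the difference between them was not tested.

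The matrices hold 2 added features, ABE_C and ABE_N, which the sources used here do not define. They gave 9 UMIs in 1 of 161 corrected lymphatic nuclei, a share of 0.621% (exact interval 0.0157% to 3.41%), against 2.58% of corrected blood endothelial and 44.7% of corrected cardiomyocyte nuclei at median depths of 2118, 1667 and 4730 UMIs in lymphatic, blood endothelial and cardiomyocyte nuclei. In RBM20 homo, RBM20 het and WT lymphatic nuclei 0 UMIs were found.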

How the results depend on the processing

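All 36 ratios of lymphatic shares between libraries stayed within their counting intervals under the alternatives run, as did 31 of 36 shares. Of 384 ratios of named genes, 343 were stable by that measure, 36 moved and 5 turned round. Genes past 2-fold depended on depth. With at least 100 UMIs per gene there were 63 for RBM20 homo against WT, 31 for corrected against RBM20 homo, 14 for RBM20 het against WT and 29 for corrected against WT, of which 72.4% were higher, against 57.0% in the main comparison. With at least 10 UMIs there were 1543, 1229, 1086 and 1203 for those comparisons. Without any fibroblast or immune UMI there were 218 for RBM20 homo against WT, 156 for corrected against RBM20 homo and 149 for corrected against WT. Thinned to 1500 UMIs there were 227 for RBM20 homo against WT, 102 for RBM20 het against WT and 148 for corrected against WT. Fewer nuclei or UMIs enter these counts by construction.

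Without fibroblast or immune UMIs, Pde8b in corrected over RBM20 homo was 0.489, Cmah in corrected over WT 0.905 and the pericyte marker median of corrected over WT -0.058, against 1.18 in the main comparison. There Postn had 44 UMIs in RBM20 homo and 0 in WT, at least 9.05-fold higher with 3 UMIs as the WT floor. The endocardial marker median of corrected over RBM20 homo, 1.04 in the main comparison, was -0.32 when thinned, -0.045 with at least 100 UMIs per gene and -0.80 without members that held endocardial UMIs. That last alternative was chosen after seeing the data. It leaves out members by the UMIs of Tmem108 itself among others. Under it Tmem108 was 1.19 and Kcnc2 1.44 in RBM20 het over WT, Tmem108 was 1.83 in corrected over WT, and Mgp was 7.90-fold higher in RBM20 homo than in WT. The cause of these shifts was not tested. No paired analysis was possible because each genotype has 1 library and the labels give no replicate numbers.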

Other observations

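Genes of fatty acid handling had a median log2 ratio of 0.36 in RBM20 homo over WT lymphatic nuclei, with 10 of 13 higher and 0 past 2-fold, and -0.18 in blood endothelial nuclei. Pparg, a nuclear receptor of lipid metabolism, had 230 UMIs in RBM20 homo and 75 in WT, 1.60-fold higher (95% interval 1.23 to 2.11), with a blood endothelial ratio of 0.908. Lpl, lipoprotein lipase, was 1.80-fold higher (1.11 to 3.04) in lymphatic nuclei, with a blood endothelial ratio of 1.94. Of 11 circadian clock genes 1 was past 2-fold higher and 2 lower, against 7.83% of all genes in either direction. Dbp, a clock output transcription factor, had 13 UMIs in RBM20 homo and 23 in WT, 3.39-fold lower (1.65 to 7.29), with a blood endothelial ratio of 0.153. The times at which hearts were taken are not given in the sources used here. Of 8 interferon and antigen presentation genes 5 were higher and 3 lower.

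Cell cycle transcripts were concentrated in few nuclei. At least 10 such UMIs were found in 0 of 161 corrected, 2 of 234 RBM20 homo, 2 of 122 RBM20 het and 0 of 109 WT lymphatic nuclei, and 54 of the 103 UMIs in RBM20 het lay in 1 nucleus.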
